A study of Mus musculus with 46 samples.

Results

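Cytochrome P450 families 1, 2 and 3 hold the monooxygenases that oxidise most drugs and foreign chemicals, many steroids and part of the polyunsaturated fatty acids. Their genes were taken here as the rows of the liver RNA-seq table whose symbol begins with Cyp1, Cyp2 or Cyp3 followed by a subfamily letter and a number, with the Cyp2a and Cyp2b subfamilies left out. They filled 54 of 25494 rows and 53 distinct symbols, since Cyp3a41a had 2 rows. Of the 54 rows, 10 held fewer than 10 counts over all mice and are given as silent, 6 were too low to test, and 38 were tested between the diets.

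Male C57BL/6 mice, an inbred strain, entered the study at 5 weeks of age and were fed for 20 weeks either the lipid-rich diet (LD, labelled as the high fat diet), with 60% of its energy as fat and 20% as carbohydrate, or the carbohydrate-rich diet (CD, labelled as the low fat diet), with 10% as fat and 70% as carbohydrate. Both diets gave 20% of energy as protein, and no group carried a genetic change. Whole liver was profiled by RNA-seq (5 mice per diet), by ChIP-seq of H3K27ac (3 per diet), Hnf4α and C/EBPα (2 per diet each), and by Hi-C and promoter capture Hi-C (2 per diet each). The comparison asks how the members differ between the diets, and what acetylation, factor binding and contacts lie near them. Because whole liver was used, fewer cells of a type and less RNA per cell cannot be told apart.

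A P450 holds a heme and takes electrons from Por, the P450 oxidoreductase, and for some reactions from cytochrome b5. The receptors Nr1i3 (CAR), Nr1i2 (PXR) and Ahr control many of these genes when foreign chemicals enter the liver, and growth hormone, through STAT5, sets which of them differ between males and females. Hnf4α and C/EBPα are hepatocyte transcription factors that bind at many liver genes, and H3K27ac is the acetylated histone H3 that marks active promoters and enhancers. In the mouse, most members of the Cyp2c, Cyp2d, Cyp2j and Cyp3a subfamilies lie side by side as copies of one another.

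The libraries held 31707963 to 39012699 counted read pairs, of which the members took 1.21% to 1.75%. H3K27ac peaks covered 149.8 to 160.4 Mb in the LD samples and 139.7 to 145.4 Mb in the CD samples. One CD Hnf4α sample stood apart with 35122 peaks against 44222 to 47960 in the other 3, and one CD C/EBPα sample had a median peak height of 8.5 against 11.5 to 13. Peak height is the tag count that the peak caller scales to a common library size. Nothing in the labels ties a ChIP-seq sample to an RNA-seq mouse.

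The stretch just before the transcription start is shown first, because many members carry there the string CAAAGNNCA, in which N is any base, a common core of Hnf4 sites. It was searched on both strands in the 200 bases before each start and was found at 25 of 53 member starts (47.2%), against 975 of 24652 starts of all genes (3.96%). All 25 matches lay on the strand of the gene, with the first base 180 to 45 bases before the start. Members copied from one another share this stretch, so the 25 starts are not independent. The C/EBP string TTGCNNAA was found at 8 of 53 member starts (15.1%) and 6.92% of all starts, and a direct repeat of AGGTCA with 1 free base between the copies at 0 of 53 and 0.0527%. With A as its free base, this repeat contains the Hnf4 string. A match is a description of the sequence and not a measured site.

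The sequences below are 60 bases of the gene strand read from the mm9 build, with the Hnf4-like stretch in capitals. The first set is from the Cyp2c cluster on chromosome 19 and holds members called lower on LD, the 3 close copies Cyp2c37, Cyp2c50 and Cyp2c54 that did not pass the test, and the pair called higher, Cyp2c38 and Cyp2c39.
Cyp2c40, chr19:39887315-39887374, minus strand: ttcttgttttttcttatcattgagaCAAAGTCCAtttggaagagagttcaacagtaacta
Cyp2c69, chr19:39961300-39961359, minus strand: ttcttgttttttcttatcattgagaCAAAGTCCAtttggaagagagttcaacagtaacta
Cyp2c67, chr19:39723623-39723682, minus strand: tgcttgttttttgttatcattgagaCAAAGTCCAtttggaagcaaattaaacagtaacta
Cyp2c68, chr19:39815634-39815693, minus strand: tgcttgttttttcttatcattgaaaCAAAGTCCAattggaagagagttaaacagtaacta
Cyp2c70, chr19:40261806-40261865, minus strand: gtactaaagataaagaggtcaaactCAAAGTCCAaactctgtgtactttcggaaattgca
Cyp2c37, chr19:40066826-40066885, plus strand: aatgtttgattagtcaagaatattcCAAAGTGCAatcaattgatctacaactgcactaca
Cyp2c50, chr19:40164083-40164142, plus strand: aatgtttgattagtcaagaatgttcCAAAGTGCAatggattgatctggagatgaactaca
Cyp2c54, chr19:40148346-40148405, minus strand: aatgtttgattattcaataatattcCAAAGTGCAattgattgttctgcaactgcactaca
Cyp2c29, chr19:39361437-39361496, plus strand: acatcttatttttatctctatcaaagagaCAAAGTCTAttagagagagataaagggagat
Cyp2c38, chr19:39537640-39537699, minus strand: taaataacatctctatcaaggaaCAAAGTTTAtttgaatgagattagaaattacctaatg
Cyp2c39, chr19:39585212-39585271, plus strand: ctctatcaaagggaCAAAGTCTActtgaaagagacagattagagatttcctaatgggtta

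Positions in the capitals are counted from 1 at the 5′ end of CAAAGTCCA, the form in Cyp2c40, Cyp2c67, Cyp2c68, Cyp2c69 and Cyp2c70. Cyp2c40 and Cyp2c69 were identical over these 60 bases. Cyp2c37, Cyp2c50 and Cyp2c54 differed from that form by C7G. Cyp2c29 and Cyp2c39 differed by C8T and Cyp2c38 by C7T and C8T, so that these 3 lacked the string as spelled. Their capitals mark the 9 bases closest to CAAAGTCCA in 60 bases chosen by the Hnf4α locus near the start. A closest stretch is always found in this way. Cyp2c29 was lower on LD and Cyp2c39 higher with the same form.

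The second set is from the Cyp2d cluster on chromosome 15 and the Cyp3a cluster on chromosome 5, and again holds members that differed between the diets beside close copies that did not pass the test.
Cyp2d9, chr15:82282732-82282791, plus strand: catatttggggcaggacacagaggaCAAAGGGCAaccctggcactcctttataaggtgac
Cyp2d10, chr15:82237643-82237702, minus strand: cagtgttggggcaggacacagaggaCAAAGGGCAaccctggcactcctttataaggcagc
Cyp2d11, chr15:82224483-82224542, minus strand: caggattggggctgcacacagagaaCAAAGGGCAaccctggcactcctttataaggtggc
Cyp2d13, chr15:82472493-82472552, minus strand: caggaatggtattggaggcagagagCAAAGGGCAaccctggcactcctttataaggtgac
Cyp2d26, chr15:82624699-82624758, minus strand: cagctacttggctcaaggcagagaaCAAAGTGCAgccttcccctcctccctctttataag
Cyp3a11, chr5:146691505-146691564, minus strand: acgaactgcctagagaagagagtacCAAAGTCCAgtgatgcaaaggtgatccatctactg
Cyp3a25, chr5:146821335-146821394, minus strand: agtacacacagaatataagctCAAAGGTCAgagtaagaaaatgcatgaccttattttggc
Cyp3a59, chr5:146890634-146890693, plus strand: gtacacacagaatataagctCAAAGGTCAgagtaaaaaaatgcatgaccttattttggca

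Cyp2d9, Cyp2d10, Cyp2d11 and Cyp2d13 shared the changes T6G and C7G. Cyp2d26 carried C7G. Cyp3a11 had the unchanged form, and Cyp3a25 and Cyp3a59 carried T6G and C7T. Of the 25 members with the string, 18 were tested, of which 3 were called higher on LD and 7 higher on CD. Over all tested rows, the shares called were 13.8% and 11.1%.

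Of the 38 tested members, 18 passed an adjusted p-value of 0.05 together with a 1.2-fold change, and these are named as called (edgeR's quasi-likelihood test, Benjamini-Hochberg over 13494 rows). They were 47.4% of the tested members, against 24.9% of all tested rows. Called higher on LD were 6 members (15.8%, against 13.8% of all rows): Cyp1b1, Cyp2c38, Cyp2c39, Cyp2d26, Cyp3a25 and Cyp3a59. Called higher on CD were 12 (31.6%, against 11.1%): Cyp1a2, Cyp2c29, Cyp2c40, Cyp2c44, Cyp2c67, Cyp2c68, Cyp2c69, Cyp2c70, Cyp2d11, Cyp2d13, Cyp2g1 and Cyp2u1. The fold change was negative, which is lower on LD, in 27 tested members and positive in 11, with a median log2 fold change of -0.31 against -0.0019 over all tested rows. Without LD replicate 1, 7 of 39 tested members were called higher on LD and 18 higher on CD, against 1890 and 1589 of 13570 rows. Over the fits without 1 mouse, the members called higher on CD ranged from 10 to 18. On log2(TPM + 1) values, the split over all rows was 2227 higher on LD and 740 higher on CD, against 1859 and 1498 in the count test, and over members 5 and 12. All 5 mice of one diet lay above all 5 of the other in 4 members higher on LD (10.2% of all rows) and 12 higher on CD (8.35%).

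**Figure D1:**
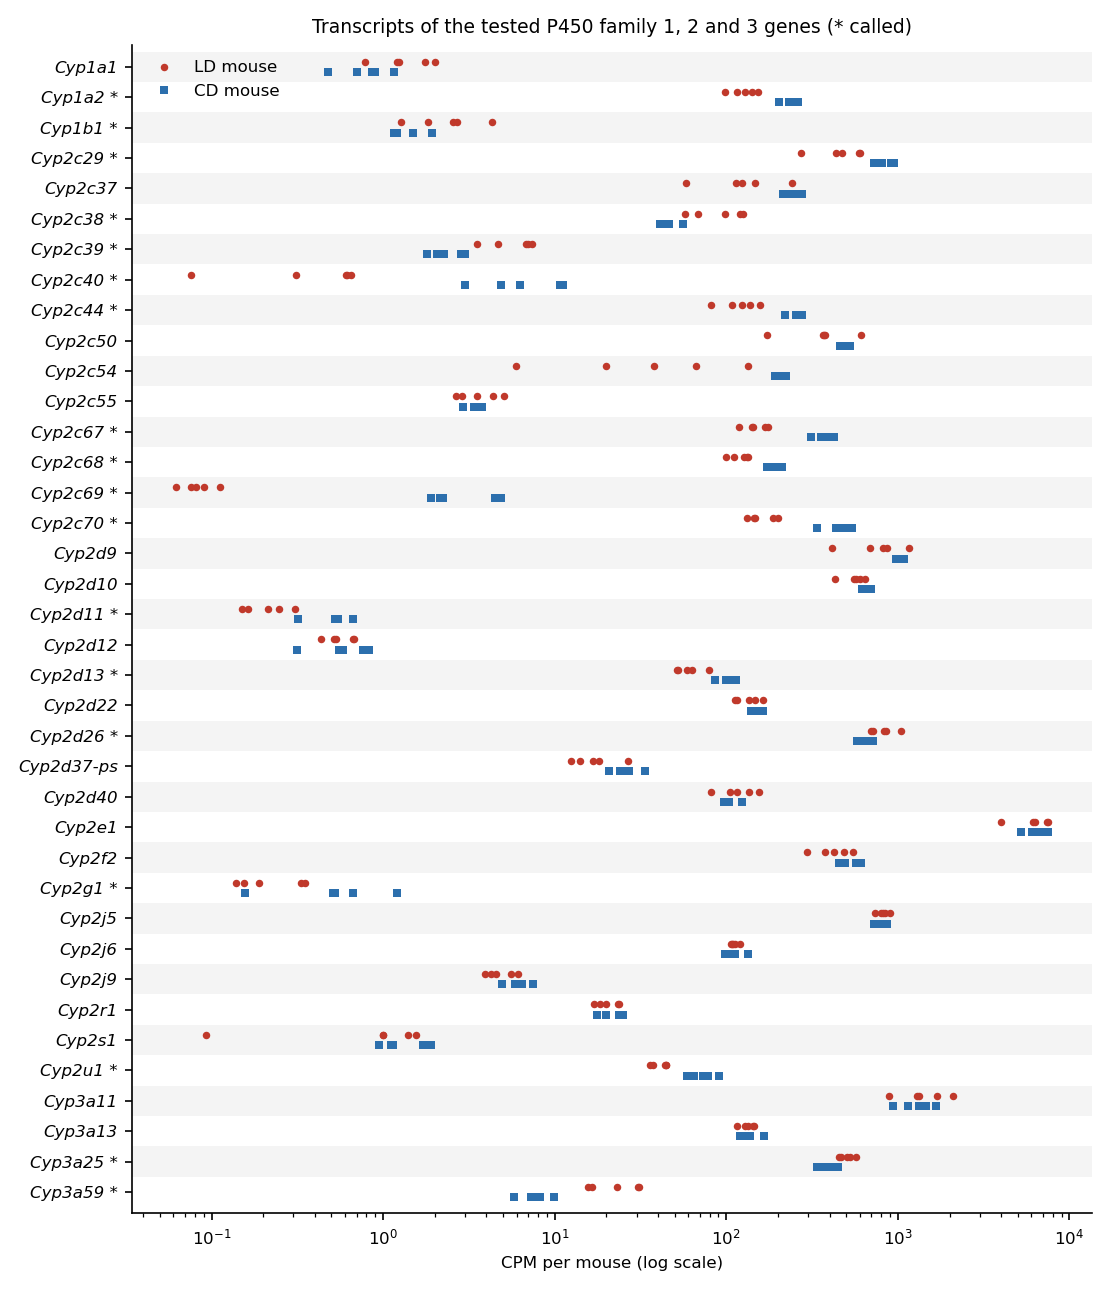
CPM (counts per 1000000 counted read pairs, TMM-scaled) of the 38 tested members on a log axis, with 1 point per mouse (red circles, 5 LD mice; blue squares, 5 CD mice) and an asterisk at the 18 called members. The LD points lie left of all CD points in Cyp2c40, Cyp2c69, Cyp2c67 and Cyp2c70 and right of them in Cyp2c39 and Cyp3a59.

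The Cyp2c cluster on chromosome 19 held 8 of the 18 called members. Its genes make epoxides and alcohols from arachidonic acid and oxidise drugs and steroids, and 15 of the 16 Cyp2c rows lie in it. Of these 15, 12 were tested, 2 were called higher on LD and 6 higher on CD. Cyp2c29 (chr19:39361575-39405203), an arachidonate epoxygenase and the most abundant Cyp2c by TPM, had 600.0, 473, 437, 594 and 272 CPM in the LD mice and 808, 728, 915, 952 and 924 CPM in the CD mice. Every CD mouse lay above every LD mouse (log2 fold change -0.87, SE 0.18, adjusted p = 0.00495).

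Cyp2c38 (chr19:39464046-39537565), the next gene along the chromosome, moved the other way. It had 68.3, 57.2, 125, 119 and 98.3 CPM in the LD mice and 43.8, 41.7, 55.9, 46.5 and 41.1 CPM in the CD mice, with the diets separated (log2 fold change 1.03, SE 0.21, adjusted p = 0.00512). Its neighbour Cyp2c39 (chr19:39585312-39643019), which is known to hydroxylate retinoic acid, had 4.65, 3.55, 6.83, 7.03 and 7.35 CPM in the LD mice and 2.26, 1.80, 2.99, 2.86 and 2.07 CPM in the CD mice. It was again higher in all LD mice (log2 fold change 1.29, SE 0.21, adjusted p = 0.000819). Cyp2c29 shared no 76-base transcript window with another member, and Cyp2c38 and Cyp2c39 shared 1.72% and 2.76% of theirs with each other.

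Beyond this pair, 4 close copies in a row were lower on LD. Cyp2c67 (chr19:39683349-39723532) had 169, 118, 174, 143 and 141 CPM in the LD mice and 395, 355, 427, 363 and 313 CPM in the CD mice (log2 fold change -1.32, SE 0.11, adjusted p = 9.01e-06). Cyp2c68 (chr19:39763326-39815591) had 112, 99.4, 128, 132 and 134 CPM in the LD mice and 204, 179.6, 190.0, 212 and 172 CPM in the CD mice (log2 fold change -0.66, SE 0.09, adjusted p = 0.000227). Both had separated diets.

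Cyp2c40 (chr19:39841563-39887304), an arachidonate hydroxylase, had 0.649, 0.0755, 0.310, 0.606 and 0.615 CPM in the LD mice and 10.7, 6.24, 11.2, 4.89 and 3 CPM in the CD mice. The lowest CD mouse lay above the highest LD mouse (log2 fold change -4.00, SE 0.50, adjusted p = 0.000314). Cyp2c69 (chr19:39917150-39961259) held 15 counts over the 5 LD mice and 533 over the 5 CD mice. It had 0.0812, 0.0755, 0.0620, 0.0909 and 0.112 CPM in the LD mice and 4.87, 2.24, 4.47, 1.90 and 2.15 CPM in the CD mice, and the ratio of scaled counts, CD over LD, was 36.8 (95% interval 22.1 to 66.3, for counting error only). Its fitted log2 fold change was -5.15 (SE 0.39, adjusted p = 7.15e-06). Cyp2c40 and Cyp2c69 are listed here among the members usually higher in females, and these mice were male.

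These 4 share sequence, and their counts are uncertain for that reason. Of the 76-base windows of the transcript, which is the read length, 56.6% in Cyp2c40, 39.6% in Cyp2c69, 35.4% in Cyp2c67 and 28.1% in Cyp2c68 also occurred in another member. A read from such a window is placed in 1 copy only where its mate lies in sequence of its own.

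Cyp2c37, Cyp2c54 and Cyp2c50 follow, and their LD mice were spread widely. Cyp2c54 (chr19:40112430-40148303) had 134, 66.3, 38.1, 19.9 and 5.92 CPM in the LD mice and 209.7, 191, 222, 193 and 197 CPM in the CD mice. All LD mice lay below all CD mice, but with wide spread among themselves, and the call missed the threshold (log2 fold change -1.94, SE 0.69, adjusted p = 0.0696). Cyp2c37 had 241, 124, 114, 147 and 58.5 CPM in the LD mice and 215, 221, 276, 237 and 254 CPM in the CD mice, with 1 LD mouse inside the CD range (log2 fold change -0.81, SE 0.30, adjusted p = 0.0751). Cyp2c50 had 611, 374, 366, 372 and 172 CPM in the LD mice and 499, 461, 529, 461 and 513 CPM in the CD mice (log2 fold change -0.38, SE 0.26, adjusted p = 0.305). Its LD replicate 1 lay above every CD mouse and its other LD mice below every CD mouse, so the fold change depends on single mice. LD replicate 1 had the highest value of the LD mice and LD replicate 5 the lowest in all 3 genes. Without LD replicate 1, Cyp2c54 reached -2.64 (adjusted p = 0.0169) and Cyp2c37 -1.12 (adjusted p = 0.00493). Without LD replicate 5 they stood at -1.65 (adjusted p = 0.0472) and -0.62 (adjusted p = 0.0446) in the same edgeR test. DESeq2 called both Cyp2c54 (adjusted p = 0.0162) and Cyp2c37 (adjusted p = 0.0418), as did edgeR without robust dispersion (0.0198 and 0.0342). On both log2 TPM scales limma called Cyp2c54 and not Cyp2c37. Other filters, DESeq2's size factors in edgeR, a replicate block and a test against a 1.2-fold change called neither. Over all the alternatives, the adjusted p of Cyp2c54 ranged from 0.0162 to 0.147 and that of Cyp2c37 from 0.00493 to 0.2.

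At the far end of the cluster, Cyp2c70 (chr19:40227851-40261776), which makes the muricholic bile acids of the mouse, had 186, 199, 132, 144 and 147 CPM in the LD mice and 494, 439, 336, 541 and 445 CPM in the CD mice. The diets were separated (log2 fold change -1.48, SE 0.14, adjusted p = 2.48e-05), and the transcript shared no 76-base window with another member. At the near end, Cyp2c55 had 2.87, 2.67, 3.54, 4.4 and 5.09 CPM in the LD mice and 3.69, 3.39, 2.93, 3.75 and 3.72 CPM in the CD mice (log2 fold change 0.08, SE 0.18, adjusted p = 0.761). Cyp2c44 (chr19:44079512-44103737), an arachidonate epoxygenase that lies apart from the cluster on the same chromosome, had 158, 137, 108, 124 and 81.9 CPM in the LD mice and 267, 276, 278, 256 and 219 CPM in the CD mice. All its LD mice lay below all its CD mice (log2 fold change -1.09, SE 0.15, adjusted p = 0.000285).

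**Figure D2:**
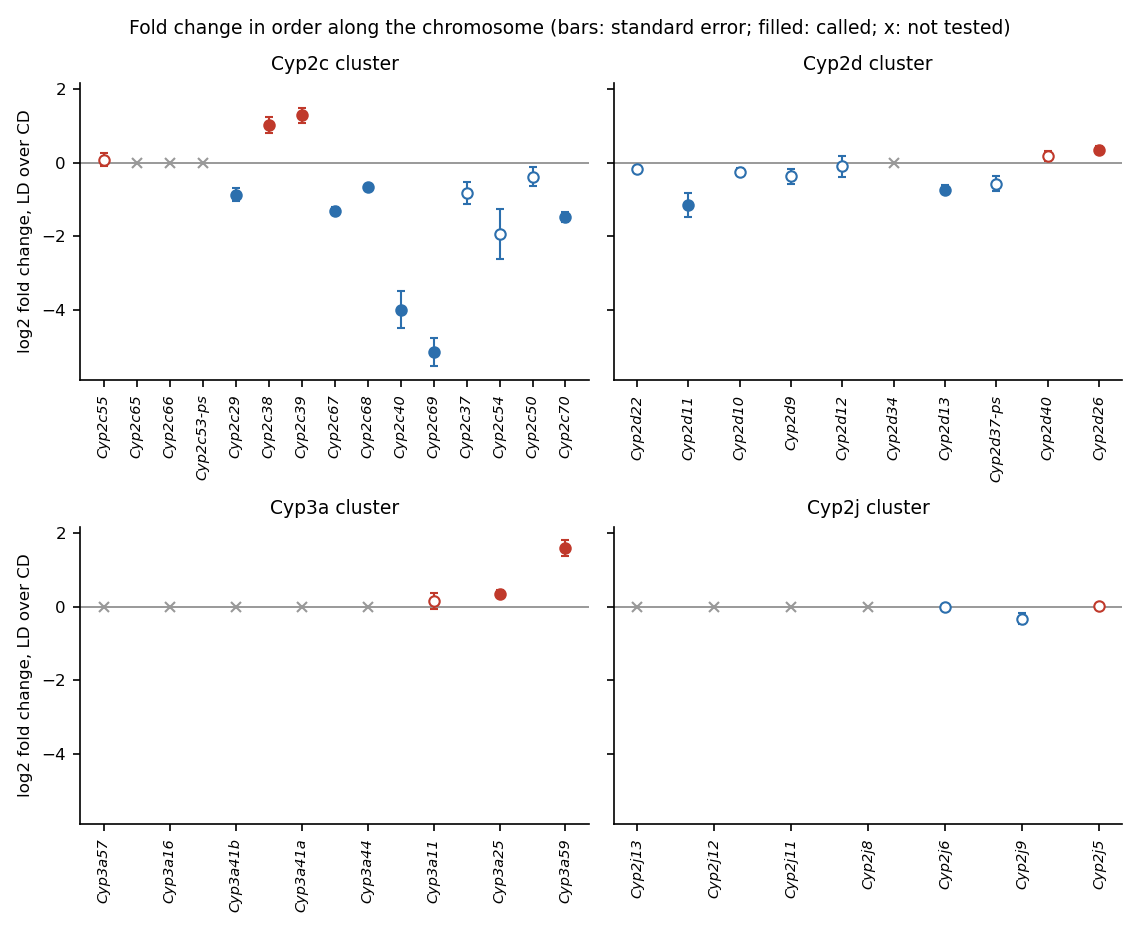
Fitted log2 fold change, LD over CD, of members in their order along the chromosome in 4 gene clusters, with standard errors over 5 mice per diet. Filled points were called (red higher on LD, blue higher on CD), open points were tested and not called, and crosses on the zero line mark rows not tested, for which no value is plotted. In the Cyp2c cluster the called members Cyp2c38 (1.03) and Cyp2c39 (1.29) stand between Cyp2c29 (-0.87) and Cyp2c67 (-1.32).

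The Cyp2d cluster had 10 members, of which 9 were tested, 1 was called higher on LD and 2 higher on CD. The most abundant by TPM was Cyp2d9, a testosterone hydroxylase that is higher in male liver. It had 1167, 865, 814, 691 and 416 CPM in the LD mice and 972, 1006, 1089, 1026 and 998 CPM in the CD mice (log2 fold change -0.36, SE 0.21, adjusted p = 0.218). LD replicate 1 was above every CD mouse and LD replicate 5 below every other mouse, and without LD replicate 1 the edgeR test called it lower on LD (log2 fold change -0.55, adjusted p = 0.0324). Without LD replicate 5 the log2 fold change was -0.20 (adjusted p = 0.253 by edgeR). Cyp2d13 (chr15:82467180-82472475) had 78.9, 63.2, 58.8, 51.6 and 52.1 CPM in the LD mice and 86.1, 99.5, 114, 103 and 101 CPM in the CD mice, with separated diets (log2 fold change -0.72, SE 0.11, adjusted p = 0.000579). Cyp2d26 (chr15:82620537-82624675) had 851, 721, 832, 1041 and 698 CPM in the LD mice and 663, 614, 713, 580.2 and 685 CPM in the CD mice. It was called higher on LD with overlapping diets (log2 fold change 0.35, SE 0.11, adjusted p = 0.0255), and the call was lost in 4 of 10 fits without 1 mouse.

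Cyp2d11 (chr15:82219584-82224452) was low, with 0.162, 0.151, 0.248, 0.212 and 0.307 CPM in the LD mice and 0.319, 0.548, 0.670, 0.317 and 0.524 CPM in the CD mice. The lowest CD mouse stood just above the highest LD mouse (log2 fold change -1.15, SE 0.33, adjusted p = 0.0196), and without CD replicate 3 the adjusted p was 0.056. It shared 21.1% of its 76-base windows with another member, mostly Cyp2d10. Cyp2d10 itself had 639, 553, 605, 574 and 429.5 CPM in the LD mice and 671, 663, 700.2, 620.3 and 660.1 CPM in the CD mice and did not pass (log2 fold change -0.24, SE 0.10, adjusted p = 0.0737). The pseudogene Cyp2d37-ps had 26.8, 16.8, 18.1, 12.4 and 14.1 CPM in the LD mice and 24.8, 27, 33.7, 20.9 and 24.2 CPM in the CD mice (log2 fold change -0.57, SE 0.20, adjusted p = 0.0515). The other 3 overlapped between the diets and were not called, with the log2 fold change in parentheses. Cyp2d12 ranged from 0.434 to 0.676 CPM in LD mice and from 0.313 to 0.828 CPM in CD mice (-0.09), Cyp2d22 ranged from 112 to 163 CPM in LD mice and from 139.8 to 163 CPM in CD mice (-0.18) and Cyp2d40 ranged from 81.8 to 155 CPM in LD mice and from 97.2 to 123.3 CPM in CD mice (0.18).

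In the Cyp3a subfamily, 10 rows held 4 tested members, of which 2 were called, both higher on LD. Cyp3a11, the main Cyp3a enzyme of male liver and a target of PXR, had 891, 1296, 1336, 1700.1 and 2084 CPM in the LD mice and 1324, 1456, 1664, 1144 and 942 CPM in the CD mice. The diets overlapped (log2 fold change 0.16, SE 0.21, adjusted p = 0.616), with LD replicate 5 above every CD mouse and LD replicate 1 below every CD mouse. That is the reverse of the order of these 2 mice in Cyp2c54. The log2 fold change of Cyp3a11 was 0.00013 without LD replicate 5 and 0.30 without LD replicate 1, and it also moved by over 1.5 times without LD replicate 4 (0.10), CD replicate 5 (0.06) or CD replicate 3 (0.26). None of the 10 fits without 1 mouse called it. Cyp3a25 (chr5:146788770-146821194) had 468, 452, 508, 570.5 and 524 CPM in the LD mice and 376, 397, 450.2, 409.9 and 336 CPM in the CD mice (log2 fold change 0.36, SE 0.09, adjusted p = 0.00966). Cyp3a59 (chr5:146890834-146924859) had 16.6, 15.6, 23.0, 31.0 and 30.4 CPM in the LD mice and 8.19, 7.28, 9.94, 7.49 and 5.76 CPM in the CD mice (log2 fold change 1.59, SE 0.22, adjusted p = 0.000466). Both had all LD mice above all CD mice, although Cyp3a25 only narrowly, and they shared 10.9% of their 76-base windows with each other. Cyp3a13, which lies apart from the cluster, stood at -0.06 on the log2 scale and did not pass the edgeR test (adjusted p = 0.665).

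Family 1 genes are known as targets of the Ah receptor. Cyp1a2 (chr9:57524744-57531462), which oxidises caffeine and aromatic amines, had 142, 129, 115, 153 and 98.3 CPM in the LD mice and 232, 204, 241, 263 and 246 CPM in the CD mice. All LD mice lay below all CD mice (log2 fold change -0.90, SE 0.11, adjusted p = 0.000107). Its neighbour Cyp1a1 was low, with 0.784, 1.21, 2.02, 1.24 and 1.76 CPM in the LD mice and 0.478, 0.705, 0.894, 0.857 and 1.16 CPM in the CD mice. It overlapped between the diets and did not pass (log2 fold change 0.77, SE 0.29, adjusted p = 0.061). Cyp1b1 (chr17:80106293-80114381), known mainly from cells other than hepatocytes, had 1.27, 2.69, 1.83, 2.55 and 4.33 CPM in the LD mice and 1.21, 1.49, 1.17, 1.94 and 1.16 CPM in the CD mice. It was called higher on LD (log2 fold change 0.86, SE 0.29, adjusted p = 0.0385), and 7 of 10 fits without 1 mouse lost the call. Among stellate cell markers, 3 of 8 also rose on LD, and their summed level was 704 to 1015 CPM on LD and 595 to 728 CPM on CD. The part of these cells in the Cyp1b1 result was not tested.

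Cyp2e1, the ethanol-oxidising P450, was the most abundant member, with 6795 TPM on LD and 6666 TPM on CD. It had 7372, 6259.8, 6154, 7539 and 4018 CPM in the LD mice and 6038, 5225, 7534, 6875 and 6520.0 CPM in the CD mice. The diets overlapped (log2 fold change -0.04, SE 0.15, adjusted p = 0.878), and LD replicate 5 was the lowest of the 10 mice. Cyp2j5, an arachidonate epoxygenase, had 894, 844, 796, 821 and 734 CPM in the LD mice and 861, 806, 868, 723 and 803 CPM in the CD mice (log2 fold change 0.01, SE 0.08, adjusted p = 0.939). None of the 3 tested Cyp2j members was called. Cyp2j6 ranged from 106 to 120.2 CPM in LD mice and from 98.7 to 134 CPM in CD mice (-0.00), and Cyp2j9 ranged from 3.92 to 6.12 CPM in LD mice and from 4.91 to 7.43 CPM in CD mice (-0.33). Cyp2f2, known for activating naphthalene, had 377, 294, 423, 549.8 and 487 CPM in the LD mice and 493, 570.0, 609.7, 491 and 455 CPM in the CD mice (log2 fold change -0.30, SE 0.15, adjusted p = 0.151). The edgeR test called it lower on LD without LD replicate 4 (-0.41, adjusted p = 0.0461), and without LD replicate 2 the log2 fold change was -0.19 (adjusted p = 0.261).

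Cyp2u1 (chr3:130993409-131006145), a fatty acid hydroxylase, had 44.5, 37.4, 44.3, 44.1 and 36.0 CPM in the LD mice and 65.3, 72.9, 90.1, 59.3 and 78.5 CPM in the CD mice. It was the one of the single-gene subfamilies with separated diets and a call (log2 fold change -0.83, SE 0.11, adjusted p = 0.00017). Cyp2g1 (chr7:27593946-27606216), an enzyme of the olfactory mucosa, held 0.189, 0.352, 0.155, 0.333 and 0.140 CPM in the LD mice and 0.669, 0.157, 1.2, 0.508 and 0.524 CPM in the CD mice. It was called lower on LD (log2 fold change -1.36, SE 0.47, adjusted p = 0.0433), with overlapping diets and with the call lost in 7 of 10 fits without 1 mouse. The vitamin D hydroxylase Cyp2r1 ranged from 17 to 23.6 CPM in LD mice and from 17.7 to 25.1 CPM in CD mice (-0.12) and was not called. Cyp2s1 ranged from 0.0931 to 1.56 CPM in LD mice and from 0.952 to 1.91 CPM in CD mice (-0.43) and was not called either. Leaving out 1 mouse gave log2 fold changes of -0.19 to -0.06 for Cyp2r1, the ends without CD replicate 3 and LD replicate 4, and of -0.64 to -0.14 for Cyp2s1, the ends without LD replicate 2 and LD replicate 3, with no call.

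Levels can be set against each other only per transcript length, and TPM was summed over subfamilies for that. Cyp2e1 alone made 6795 ± 1304 TPM on LD and 6666 ± 964 TPM on CD (SD, n = 5). The Cyp2c subfamily summed to 2126, 1528, 1508, 1621 and 1172 TPM in the LD mice and 2789, 2774, 3058, 3151 and 2880.0 TPM in the CD mice, without overlap. Its mean was 1591 ± 344 TPM on LD and 2930.3 ± 168 TPM on CD (SD, n = 5). The Cyp2d sums were 2910.4 ± 461 TPM on LD and 2992 ± 168 TPM on CD and the Cyp3a sums 1945 ± 519 TPM on LD and 1589 ± 300.1 TPM on CD (SD, n = 5), both with overlapping diets. The Cyp1a sums, nearly all Cyp1a2, were 128 ± 16.6 TPM on LD and 226 ± 22.4 TPM on CD (SD, n = 5), and those of Cyp2u 33.5 ± 2.73 TPM on LD and 56.5 ± 9.82 TPM on CD (SD, n = 5), both with separated diets. On CD the Cyp2c and Cyp2d ranges overlapped, and on LD the highest Cyp2c sum lay below the lowest Cyp2d sum. These sums are given without a test, because the members were chosen with results known.

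**Figure D3:**
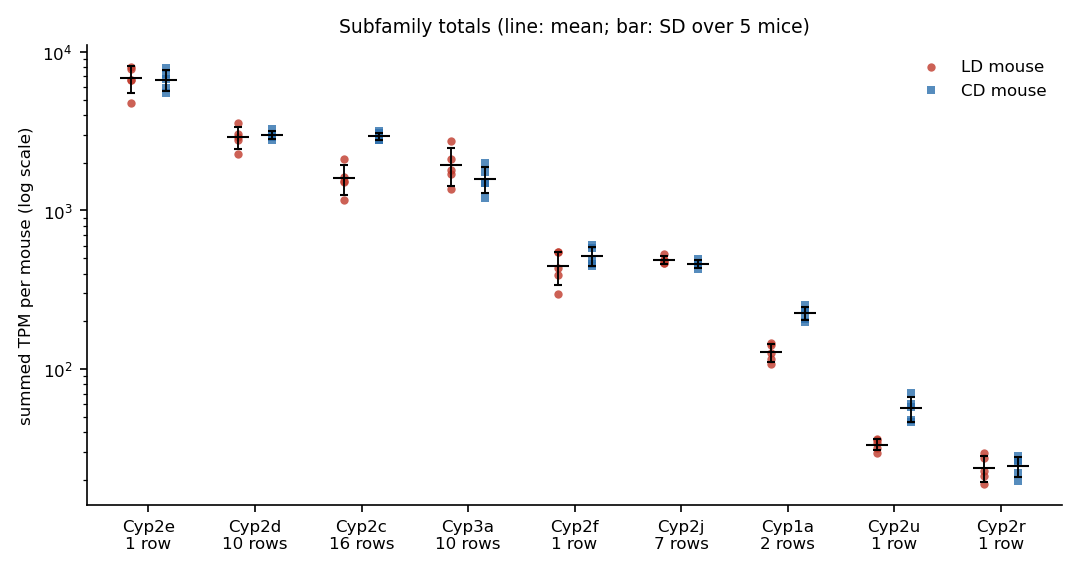
Summed TPM per mouse of 9 subfamilies, on a log axis (red circles, LD mice; blue squares, CD mice; black line and bar, mean and SD over 5 mice). The LD mice lie below all CD mice in Cyp2c, Cyp1a and Cyp2u, while in Cyp2d, Cyp2e, Cyp2f, Cyp2j, Cyp2r and Cyp3a the diets overlap.

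The rows too low to test were 6. Cyp2c53-ps, a pseudogene of the Cyp2c cluster, held 13 counts on LD and 64 on CD, a ratio of CD over LD of 5.10 (95% interval 2.78 to 10.1). Cyp2j8 held 11 and 26 counts (2.45, 1.17 to 5.50), and Cyp3a57 held 45 and 18 (0.415, 0.226 to 0.731). Cyp2d34 held 7 and 12 counts (1.78, 0.645 to 5.33), Cyp3a16 held 10 and 9 (0.933, 0.336 to 2.56), and Cyp3a44 held 23 and 34. These intervals cover counting error only, and with mice added together they are no test of the diets. Of the 10 silent rows, 6 held no count in 348851300. For Cyp2c66, Cyp2j12, Cyp2w1 and Cyp2t4 this allows a level of up to 0.0086 CPM. The other 2, Cyp3a41b and one row of Cyp3a41a, are listed at the same coordinates (chr5:146319533-146345599), where a read overlaps both, so their 0 sets no level. Cyp2c65, Cyp2j11, Cyp2j13 and the other row of Cyp3a41a held 5, 9, 2 and 4 counts. The 76-base windows of Cyp3a41a and Cyp3a41b were shared by 95.1% and 90.7%, and a read from a shared window fits both unless its mate does not.

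The partners of these enzymes were taken from gene lists, with the called members of each list given by their log2 fold change. Over all tested rows, 13.8% were called higher on LD and 11.1% higher on CD. Of 7 electron donors, 2 rose on LD, Cyb5a (0.28) and Pgrmc1 (0.34), which are cytochrome b5 and a heme-binding membrane protein, and the mitochondrial ferredoxin Fdx1 fell (-0.30). Por had 0.07 (adjusted p = 0.881 by edgeR) with a wide spread in both diets. Of 12 tested receptors and partners, Nr1i3 (0.67) and Ppara (0.34) rose, the glucocorticoid receptor Nr3c1 fell (-0.29), and Nr1i2 (0.13) and Ahr (-0.11) were not called. The level of Nr1i3 was 111 ± 14.9 CPM in LD mice and 69.6 ± 16.8 CPM in CD mice (SD, n = 5). Of 11 liver factors, Foxa3 fell (-0.51). Hnf4a (-0.26, adjusted p = 0.0176) and Cebpa (-0.26, adjusted p = 0.0202) stayed under the fold change of 1.2 in the edgeR test.

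None of 8 genes of heme synthesis was called by edgeR or DESeq2. Fech (-0.20, adjusted p = 0.0288) and Ppox (-0.20, adjusted p = 0.0432) passed the adjusted p-value in edgeR, with separated diets, but not the fold change of 1.2, and they were the 2 with an unadjusted p under 0.05. Of 4 genes of heme breakdown, Hmox1 (0.82) and Blvrb (0.55) rose. Of 11 genes of the growth hormone and STAT5 axis, Stat5a (0.49) and Trim24 (0.55) rose and Ghr (-0.32) and Igf1 (-0.66) fell. Of 9 genes outside the P450s that are higher in male liver, 5 fell, Elovl3 (-1.36), Hsd3b5 (-5.34), Gstp1 (-0.73), C6 (-0.87) and Selenbp2 (-1.51), and of 7 tested genes higher in female liver, Sult1e1 (1.66) and Abcd2 (0.87) rose. Of the tested members usually higher in females, Cyp2c39 rose and Cyp2c40 and Cyp2c69 fell, and of the 2 usually higher in males Cyp2u1 fell and Cyp2d9 was not called. Of 4 tested Ah receptor targets outside the P450s, Nqo1 (1.37) and Ugt1a6a (0.49) rose. Within the Ah receptor members, Cyp1b1 rose, Cyp1a2 fell and Cyp1a1 was not called.

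Of 7 CAR and PXR responsive members, Cyp2c38 rose and Cyp2c29 fell, the median of the 7 being -0.38, and of 11 tested arachidonate epoxygenases, Cyp2c38 and Cyp2c39 rose and Cyp2c29 and Cyp2c44 fell, the median being -0.33. Median values over lists are set against -0.0019 for all tested rows, and the lists were chosen with earlier results known.

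Among lists for liver zones and other cell types, the called share was above the 24.9% of all tested rows for periportal genes (8 of 10), hepatocyte markers (4 of 8), pericentral genes (4 of 10) and stellate markers (3 of 8). It was also above 24.9% for adipocyte (2 of 2 tested), kidney and intestine (1 of 1) and pancreas (1 of 1) markers, with very few genes tested. It was near or below 24.9% for lymphocyte (2 of 8, in opposite directions), cholangiocyte (1 of 6), endothelial (1 of 8) and macrophage (1 of 9) markers. Of 10 pericentral genes outside the P450s, Glul (0.40), Rhbg (1.33) and Lect2 (0.61) rose and Tbx3 fell (-0.51). Of 10 periportal genes, Hsd17b13 rose (0.73) and 7 fell, Hal (-0.71), Sds (-0.70), Gls2 (-0.46), Ass1 (-0.54), Cps1 (-1.33), Sdsl (-0.32) and Etnppl (-1.08). Summed levels were 2743 to 5142 CPM on LD and 2888 to 4481 CPM on CD for pericentral genes, and 6094 to 9289 CPM and 10662 to 15061 CPM for periportal genes. Of 8 hepatocyte markers, 4 fell, Serpina1a (-0.49), Fgb (-0.76), Tat (-0.88) and Ahsg (-0.55), with sums of 97701 to 120980 CPM on LD and 103030 to 121290 CPM on CD. Of 9 macrophage markers Cd68 rose (0.96), with sums of 549 to 1456 CPM and 435 to 873 CPM. Of 8 stellate markers, Col1a1 (1.60), Col3a1 (1.44) and Dcn (0.38) rose.

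Of 8 lymphocyte markers Cd8a rose (2.04) and Cd4 fell (-1.26), with sums of 4.08 to 9.22 CPM on LD and 5.08 to 6.38 CPM on CD. Of 8 endothelial markers Lyve1 rose (0.90), with sums of 452 to 631 CPM and 498 to 603 CPM, and of 6 cholangiocyte markers Spp1 rose (1.98), with sums of 46.2 to 122 CPM and 19.0 to 32.7 CPM. Of the adipocyte markers Fabp4 (1.41) and Cfd (5.44) rose, with sums of 27.6 to 60.7 CPM and 5.81 to 10.3 CPM, while Lep and Plin1 held no count. Of the kidney and intestine markers, Fabp2 rose (0.72), with sums of 302 to 350 CPM and 163 to 228 CPM, and Umod held no count. Of the pancreas markers Cela1 fell (-0.66), with sums of 13.5 to 25.5 CPM and 21.5 to 34.2 CPM, and Prss1, Pnlip and Amy2a5 held no count. The part of any of these cells in the P450 results was not tested.

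Hnf4α peaks lay close to the starts of most tested members. Overlapping peaks of the samples were merged into loci, and 225 Hnf4α loci lay within 20 kb of a member, with at least 1 at 49 of 54 rows. A locus within 1 kb of the start was found at 29 of 38 tested members (76.3%, against 60.7% of all tested rows), at 15 of the 18 called ones (83.3%, against 58.3% of all called rows) and at 0 of the 10 silent rows (5.34% of all silent rows). A locus centre lay in the 200 bases before the start at 23 of 53 member starts (43.4%), against 11.4% of all 24798 starts. Of the 25 starts with the Hnf4 string 16 had a locus within 1 kb (64.0%), and so had 15 of the other 29 rows (51.7%), a difference that was not tested. Cyp3a41b is among these 29, although it shares its start with a Cyp3a41a row that carries the string, and it had no locus there. Between the copies, the string and the peak did not always go together. Cyp2c70 had heights of 98.5 and 91 on LD and 48 and 146 on CD at its start, while Cyp2c69, which carries the same CAAAGTCCA, had no locus within 1 kb and Cyp2c40 a peak of height 4 in 1 CD sample. Around the starts of Cyp2c40 and Cyp2c69, 52.7% and 50.7% of the 35-base windows, the ChIP-seq read length, recur within the cluster, and only uniquely aligned reads were used by the authors.

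**Figure D4:**
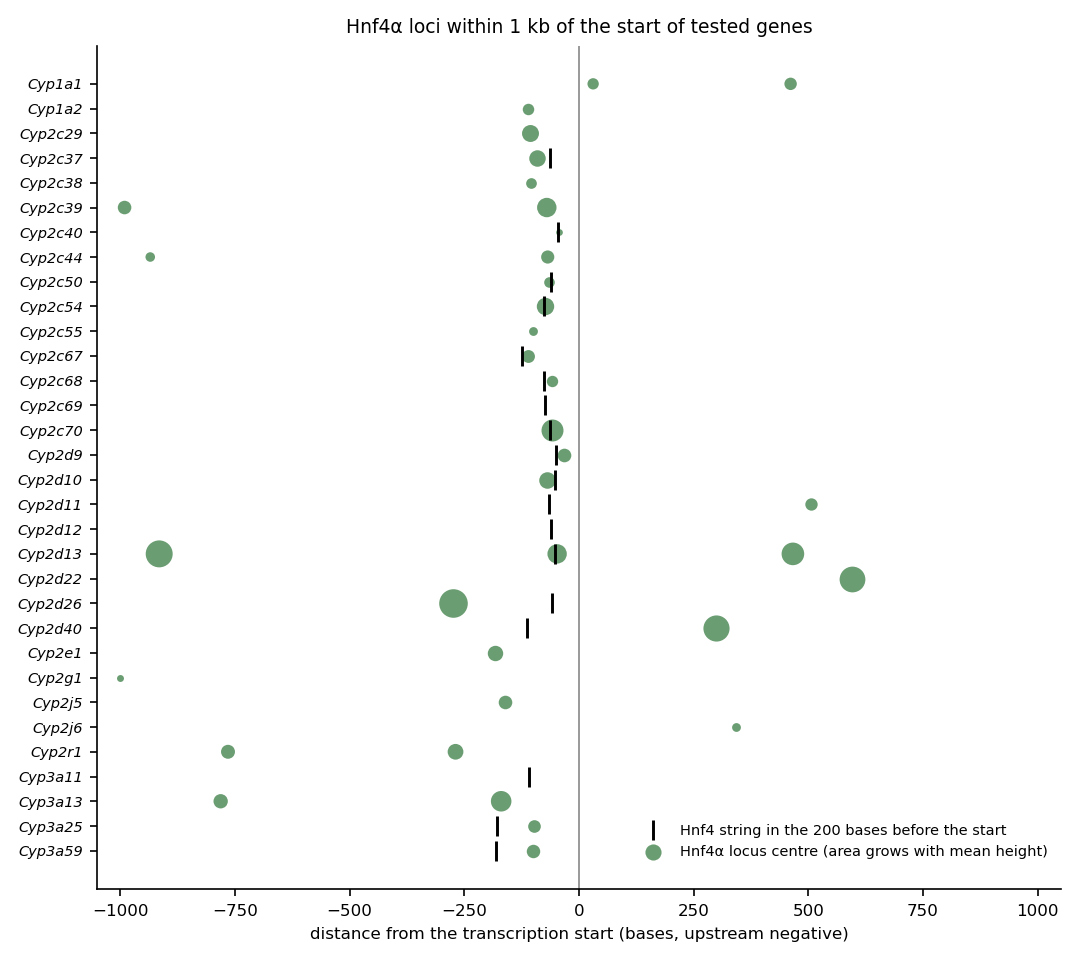
Distance of Hnf4α locus centres within 1 kb of the start of tested members, in bases (upstream negative; green points, area growing with the mean height over the samples that have a peak), and the first base of the string CAAAGNNCA in the 200 bases before the start (black ticks). Points and ticks gather in the 200 bases before the start, while Cyp2c69, Cyp2d12 and Cyp3a11 show a tick and no point.

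Heights were compared at loci with a peak in every sample, 105 near members. As deposited, limma called 0 of the 23331 such loci in either direction (0.00% each), and at an unadjusted p under 0.05 it found 503 higher on LD (2.16%) and 38 higher on CD (0.163%), none of them near a member. edgeR on the tag counts called 0 as well. The median log2 fold change was 0.15 over all these loci and 0.18 over those near members. With each sample centred on its median, the median of all loci moved to -0.04, and 1 locus near a member was called higher on LD and 7 higher on CD (backgrounds 3.30% and 3.19%). The locus higher on LD lay 24752 bases downstream of the start of Cyp2t4, which is silent. The 7 higher on CD included one 1954 bases before Cyp2d13 (deposited heights 204 and 191 on LD, 168 and 349 on CD), one 1885 bases before Cyp2d26 (171 and 149, 133 and 277), one 4267 bases into Cyp2c44 (40 and 37.5, 35.8 and 114) and one 19830 bases downstream of the Cyp2u1 start (84.2 and 85, 75.5 and 186). The others lay 16412 bases from Cyp2d40, 19456 from Cyp2w1 and 35505 from Cyp1a1. In all 4 with heights given, the deposited heights of the diets overlapped and the sign of the difference came out the same with and without centring.

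Loci with a peak in both samples of one diet and in neither of the other were 9 on LD and 9 on CD of the 225 near members (4.85% and 2.57% of all loci). Those on CD included 2 at the starts of members lower on LD, at chr15:82472411-82472634 (47 bases before Cyp2d13, heights 50.2 and 96.2) and at chr19:44103684-44103926 (68 bases before Cyp2c44, heights 17.5 and 44.2). On LD, one lay at chr19:44104558-44104785 (934 bases before Cyp2c44, heights 14.2 and 13.2) and one at chr19:39081280-39081539 (99 bases before Cyp2c55, heights 10.8 and 11). Cyp2c44 thus had a CD-only and an LD-only locus within 1 kb of its start. At the start of Cyp2c54 the LD samples had heights of 73 and 56 and the CD samples 23.8 and 79, and at Cyp2e1 the LD samples had 59.2 and 49 and the CD samples 16.5 and 52.8. In both genes the low value was that of the CD sample with the fewest peaks.

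C/EBPα loci within 20 kb numbered 206 and reached 48 of 54 rows, and lay within 1 kb of the start at 21 of 38 tested members (55.3%, against 48.4% of all tested rows), at 9 of the 18 called ones (47.5% of all called rows) and at 2 of the 10 silent rows (8.51% of all silent rows). A centre in the 200 bases before the start was found at 9 of 53 member starts (17%), against 10.4% of all starts. At the 40 loci near members with a peak in every sample, limma on the deposited heights called 0 higher on LD and 1 higher on CD (0.876% and 2.47% of 13805 loci), and 3 and 7 of the 40 had an unadjusted p under 0.05, against 3.75% and 19.9% of all these loci. edgeR on the tag counts called 0 near members in either direction. The median log2 fold change was -0.37 near members and -0.41 over all these loci, and -0.06 and -0.10 after centring. The called locus lay 18807 bases downstream of the Cyp1a2 start, at chr9:57512498-57512812, with heights of 77.5 and 74.5 on LD and 186 and 136 on CD (log2 fold change -1.07, adjusted p = 0.0475). After centring it stood at -0.76 (adjusted p = 0.00011).

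After centring, limma called 6 loci near members higher on LD and 4 higher on CD (9.14% and 10.5% of all). Higher on CD were, beside that at Cyp1a2, a locus 208 bases before Cyp2e1 (heights 12 and 11.5 on LD, 38.5 and 26 on CD), one 953 bases before Cyp2d13 (22 and 37, 77 and 56) and one 14060 bases from the silent Cyp2w1. Higher on LD were loci 8809 bases before Cyp3a25 (23.5 and 28.5, 12 and 8), 24 bases after the start of Cyp2c39 (18 and 32.5, 18.5 and 12.5) and 7685 bases before Cyp2g1 (26.5 and 36, 29 and 7), with the others near Cyp2d37-ps, Cyp2j5 and Cyp1a1. Found in both LD samples and no CD sample were 23 of 206 loci (5.18% of all), against 3 the other way (1.77%). Among the 23 was a locus at the start of Cyp2c70 (129 bases before it, heights 14 and 21), and others lay near Cyp3a25, Cyp3a59, Cyp2c50 and Cyp2e1. Within the centres of the shared loci, 200 bases wide, CAAAGNNCA occurred at 44 of 105 Hnf4α loci near members (41.9%, against 26.6% of all) and TTGCNNAA at 17 of 40 C/EBPα loci (42.5%, against 46.7%).

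H3K27ac was measured as the percent of the gene and 20 kb on either side that lay in called peaks. Of 54 rows, 45 had coverage in at least 1 sample. The 2 members Cyp2c70 and Cyp2d13 were called lower on LD and 0 higher by limma (0.533% and 3.71% of 19138 genes), while 9 and 3 of the 45 had an unadjusted p under 0.05, against 4.02% and 18.9% of all 19138 genes. Cyp2c70 had 6.76, 5.41 and 4.87% on LD and 11.1, 11.1 and 14.6% on CD (difference -6.58 percentage points, SE 1.22, adjusted p = 0.0387). Cyp2d13 had 29.1, 28.3 and 26.1% on LD and 34.9, 36.6 and 36.6% on CD (difference -8.24, SE 1.70, adjusted p = 0.0458). Both were also lower on LD in RNA, and both calls were lost in each of 6 fits without 1 sample. Cyp1a2 had 48.5, 42.8 and 47.9% on LD and 57.4, 55.2 and 54.4% on CD (adjusted p = 0.0715) and Cyp2c44 53.0, 55.5 and 46.2% on LD and 58.9, 59.5 and 64.6% on CD (adjusted p = 0.125), with separated diets and no call.

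All CD samples lay above all LD samples at 10 members (5.30% of all genes), Cyp1a1, Cyp1a2, Cyp2c44, Cyp2c50, Cyp2c54, Cyp2c68, Cyp2c70, Cyp2d11, Cyp2d13 and Cyp2d22, and the reverse held at Cyp3a57 alone (20.9%). Neighbouring genes share parts of their windows. Of the 10, 6 were called higher on CD in RNA and 4 were not called. The median difference was -0.793 percentage points over covered members and 0.765 over all covered genes, where the LD samples have the larger covered length. Scaled to that length, the medians were -2.90 and 0.02, and 6 members were called lower on LD (1.38%). None of the 6 members called higher on LD in RNA had separated diets in coverage. Cyp2c38 had 3.70, 3.88 and 4.23% on LD and 4.93, 3.52 and 4.05% on CD, and Cyp3a59 had 5.67, 3.51 and 5.13% on LD and 3.24, 1.62 and 5.13% on CD. Cyp2c69 had no coverage in any sample.

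**Figure D5:**
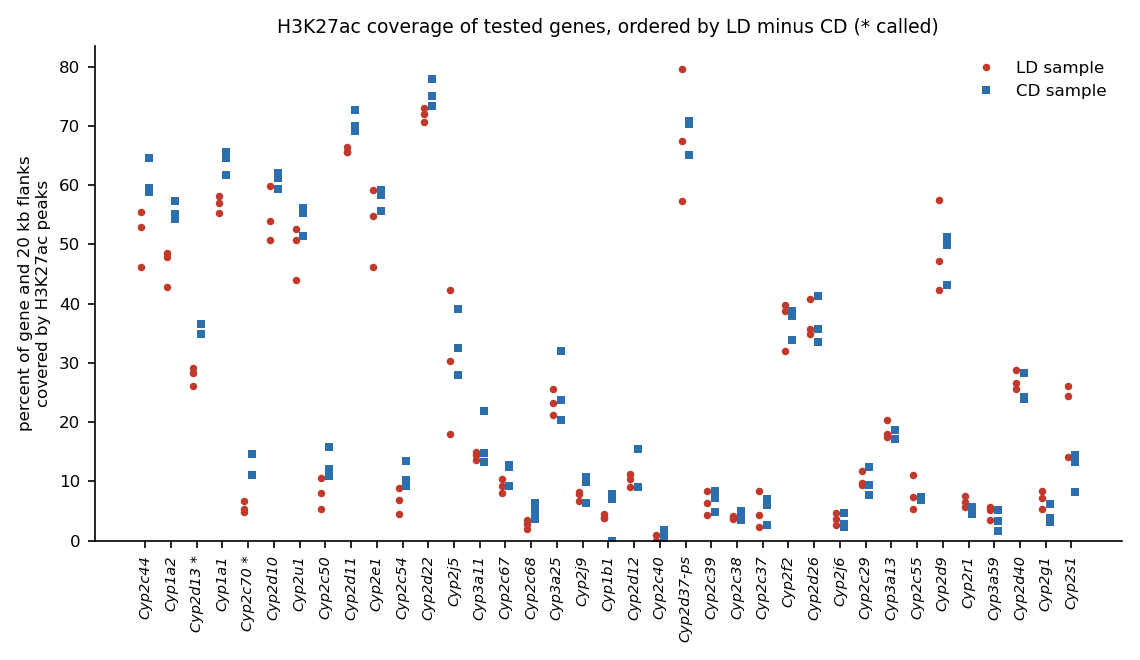
Percent of the gene and its 20 kb flanks covered by H3K27ac peaks in tested members with any coverage, ordered by the difference LD minus CD (red circles, 3 LD samples; blue squares, 3 CD samples; asterisk, called). The 2 called members, Cyp2c70 and Cyp2d13, have all LD points under their CD points, and the highest single value is 79.6% at Cyp2d37-ps.

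Of 111 H3K27ac loci within 20 kb of members that at least 2 samples shared, 73 were found in all 6 samples, 4 in the 3 CD samples only (0.757% of all loci) and 1 in the 3 LD samples only (3.13%). Those on CD only were chr19:40242000-40243599 inside Cyp2c70, chr15:82488400-82489999 near Cyp2d13, chr9:57522400-57524599 next to the end of Cyp1a2 and chr5:146808400-146810599 inside Cyp3a25. The first 3 were near members lower on LD and the last inside one that was higher. The locus on LD only, chr5:146105000-146106599, covered the start of Cyp3a57, which held 45 counts on LD and 18 on CD.

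Cyp2d13 and Cyp2c70 were lower on LD in both RNA and H3K27ac, and the factors near their starts differed between them. At Cyp2d13, a Hnf4α locus 47 bases before the start was found on CD only, while the locus 466 bases after it had heights of 121 and 112 on LD and 59.8 and 114 on CD. The C/EBPα locus 953 bases before Cyp2d13 was lower on LD after centring (log2 fold change -0.89, adjusted p = 0.00426 by limma). At Cyp2c70, the Hnf4α heights at the start overlapped between the diets, and the C/EBPα locus at the start was found on LD only. Cyp1a2, lower on LD in RNA with separated but uncalled H3K27ac, had Hnf4α heights of 21.2 and 25.8 on LD and 14.8 and 27 on CD at its start and an LD-only C/EBPα locus 568 bases before it.

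The interaction lists and domains used here were pooled or summed over replicates by the authors, and their differences were not tested here. Interactions with a member start at one end numbered 127 on LD and 162 on CD, of which 93 were in both, against 151203 and 149798 in all. Cyp2e1 had 8 on LD and 18 on CD with 6 in both, and Cyp2d26 had 13 and 20 with 9 in both. Cyp1a2 had 10 and 11, Cyp2u1 had 18 and 16, and Cyp1b1 had 14 and 10. Within the Cyp2c cluster only Cyp2c38 (2 and 3) and Cyp2c55 (2 and 1) had any. Cyp2d9 and all rows of the Cyp3a cluster had none. Whether each start was targeted in the capture, or lies in sequence that reads can be placed in uniquely, was not checked. A gene with none listed is therefore not shown to lack contacts. The Cyp2c cluster lay in 2 domains on LD, of 1015 kb with 11 starts and of 260 kb with 4. On CD the first of these was split in 3, of 500, 340 and 175 kb. The starts of Cyp2c38, Cyp2c39, Cyp2c67 and Cyp2c68 lay in the second and those of Cyp2c40 and Cyp2c69 in the third. The borders between them fell inside Cyp2c38 and Cyp2c40. The domain limits around the Cyp2d cluster were the same on both diets.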

How the data were processed

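The members and gene lists were chosen with earlier results of these data known. Coordinates are mm9. For RNA-seq, the authors aligned reads with STAR, assigned them by strand to RefSeq genes with featureCounts 1.5.0-p1, and deposited raw counts and TPM values. No option to count reads that fit several places is stated. One TPM column of the CD mice carries a replicate number that matches no label and was used only as a CD mouse. The deposited SICER lists hold H3K27ac intervals (other values). The deposited HOMER lists of Hnf4α and C/EBPα hold a signal, the peak height scaled to a common library size, and raw tag counts. The authors' interaction lists hold a CHiCAGO score of at least 5 on pooled replicates.

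Counts were tested with edgeR 4.0.16 (TMM, filterByExpr, robust quasi-likelihood fit), and peak coverage and log2 heights with limma 3.58.1, at an adjusted p-value of 0.05 throughout. Tested on simulated counts for LD against CD over 13414 genes, the count test recovered 178 of 200 genes changed by 1 on the log2 scale, with 10 false calls. Peak lists were handled in Python 3.11.15 with pandas 2.3.3, and sequences were read with samtools 1.23.1. Distances are from the start in the count table, which for Cyp1a1 lies at -9685 bases from the annotated one. By rule, the named genes were every called member, the member of highest mean TPM in each subfamily, the called genes of the lists, Por, Nr1i2, Nr1i3, Ahr, Hnf4a and Cebpa, and the called loci. Other members were named after their values were seen, to complete their clusters. Alternatives were DESeq2 1.42.0, its size factors, other filters, TPM scales, windows, peak scalings, a block for the replicate number and leaving out each sample.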

Additional observations from a re-analysis of the deposited data

Results flagged for a closer look

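Cyp2d40 had 123.27 CPM in CD replicate 1, against 97.2 to 103 CPM in the other 4 CD mice. The gap to the nearest of them was 0.761 of the range of the group, above the critical ratio of 0.71 for 5 samples. Of 76 groups tested in this way, 1 was marked, and chance marks about 1 in 20.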

How the results depend on the processing

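No called result changed direction under any alternative run. Among values that were not called, the sign turned for several near no change. Examples are Cyp2e1 (-0.11 to 0.09 without 1 mouse), Cyp2j5 (-0.03 to 0.05), Cyp2j6 on TPM values, Ahr, Por and the Cyp2d sum. The median of all Hnf4α loci moved from 0.15 to -0.04 on centring and to -0.34 without CD replicate 1. Among members, the RNA-seq calls higher on LD were 6 and fell to 3 in a test against a fold change of 1.2, and leaving out 1 mouse gave 4 to 7. Calls higher on CD were 12 and ranged from 10 to 18 without 1 mouse, the 18 without LD replicate 1. DESeq2 gave 7 and 16 of 44 tested members (2081 and 1695 of 15825 rows). The fit without robust dispersion (chosen after seeing the data) gave 6 and 15 of 38 (1875 and 1521 of 13494 rows). No filter gave 6 and 13 of 48 (1917 and 1487 of 18266 rows), and at least 10 counts in every sample 6 and 8 of 33 (1678 and 1415 of 12565 rows). Called members of H3K27ac coverage, 0 higher on LD and 2 higher on CD, became 1 higher on LD within 50 kb and 0 to 1 without 1 sample. Those higher on CD became 1 within 5 kb, 1 within 50 kb, 1 around the start and 1 for peaks of at least 1 kb, 6 when scaled to the covered length, and 0 without any 1 sample. At Hnf4α loci, 0 in either direction became 1 higher on LD and 7 higher on CD after centring. Without 1 sample they ranged from 0 to 49 on LD, the 49 without CD replicate 2 (where 8886 of all 23331 loci were called), and from 0 to 8 on CD, the 8 without CD replicate 1 (772 of all). At C/EBPα loci, 0 higher on LD became 6 after centring and 0 to 4 without 1 sample. The 1 higher on CD became 4 after centring, 0 with edgeR on tag counts, 0 within 5 kb and 0 to 13 without 1 sample, the 13 without CD replicate 2 (4887 of all 13805). Where leaving out 1 factor sample left 1 in a diet, that sample was assumed to vary like the other diet. Counting each pair of a single gene and an alternative, 24 passed the threshold where the reported value did not and 114 fell short where it did. The causes of these differences were not tested.

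The main tests did not pair samples by replicate number. Deviations of same-numbered LD and CD mice correlated at -0.13, 0.23, 0.05, 0.02 and -0.03 for RNA-seq, and at -0.18, 0.15 and -0.16 for H3K27ac, at 0.02 for Hnf4α and at -0.05 for C/EBPα. With a replicate block the RNA-seq calls among members were 7 and 12 (1818 and 1355 of all 13494 rows), the H3K27ac calls higher on CD 0, and the C/EBPα calls higher on CD 0. With 2 samples per diet for the factors, the spread behind each height is poorly known, and low members such as Cyp2g1, Cyp2d11 and Cyp1b1 rest on few counts.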
